A study of Mus musculus with 2 samples.

Results

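Of the 11134 cells kept from both libraries, 193 (1.73%) carried the transcripts sought of IL-17 type γδ T cells of the dermis, and they are called gated cells here. A cell was gated when the unique transcript counts (UMIs) of 6 genes, Il17a, Il17f, 5830411N06Rik, Cd163l1, Blk and Sox13, summed to at least 3, when those of Cd3d, Cd3e and Cd3g summed to at least 2, and when no UMI of Trac, Cd4 or Cd8a was present. This gave 82 of 4709 cells (1.74%, exact 95% interval 1.39 to 2.16%) after isotype control and 111 of 6425 cells (1.73%, 1.42 to 2.08%) after Skint1 antibody. The cells were thus chosen by their measured UMIs of these genes, and levels of those genes are descriptions with no test. The DETCs used for comparison numbered 3748 and 5080, with at least 3 UMIs of Trdc, at least 3 of Cd3d, Cd3e and Cd3g summed, and none of the 6 gate genes. All intervals cover counting error only.

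The name did not hold for the whole set. Of the 193 gated cells, 79 (40.9%) had at least 2 UMIs of Il7r, Maf, Ccr6 and Ramp1 and fewer than 3 of the DETC genes Cd7 and Fcer1g, 82 (42.5%) had the reverse, and 32 (16.6%) met both criteria. Of genes known from IL-17 type γδ T cells that the gate did not read, Il7r was found in 97 of 193 cells, Maf in 92 and Ccr6 in 60. Il23r was found in 13 cells, Il22 in 10, and the γ chain genes Tcrg-V4 and Tcrg-V6 in 7 and 5 cells, respectively. The set is therefore described by its rule and by these leading genes. The cells were sorted from epidermal suspensions, and no value here shows which of them came from the dermis.

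Both groups were female, wild-type FVB/NJ mice of 8 weeks, which had received an intradermal ear injection of either isotype control or Skint1 antibody 7 days earlier. Ear epidermis was parted from dermis with trypsin, and viable CD45+ cells negative for EpCAM and MHC-II were sorted into 1 droplet library (10x Genomics, 3′ chemistry) per treatment. Treatment and library cannot be told apart, with n = 1 per group. Median depth was 4206 and 3715 UMIs per kept cell, and gated cells were deeper than DETCs (5708 and 4825 against 4137 and 3626 UMIs). There were 8 barcodes kept in both libraries, of which 0 were gated.

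IL-17-producing γδ T cells are innate-like lymphocytes that leave the thymus already committed to make IL-17A, IL-17F and IL-22, under transcription factors that include c-MAF and SOX13. In mouse skin they live mainly in the dermis, respond to IL-1, IL-23 and IL-7, and bear the chemokine receptor CCR6. DETCs are the γδ T cells of the mouse epidermis, which carry one invariant receptor (Vγ5Vδ1, encoded by Tcrg-V5 and Trdv4), produce IL-13, amphiregulin and XCL1, and whose precursors are selected in the thymus through Skint1, a protein that keratinocytes also make and that the antibody targets.

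Among the genes that chose the cells, Il17a (chromosome 1, 20730905 to 20734496, + strand, GRCm38) and Il17f (chromosome 1, 20777146 to 20790617, - strand) encode the cytokines. 5830411N06Rik (chromosome 7, 140247284 to 140300736, + strand) and Cd163l1 (chromosome 7, 140218267 to 140231145, + strand) are neighbouring scavenger receptor genes, Blk (chromosome 14, 63372836 to 63417037, - strand) encodes a Src family kinase, and Sox13 (chromosome 1, 133382303 to 133424377, - strand) a transcription factor. AGGTCA is a half-site of nuclear receptors such as RORα. Of 10 genes, the gate genes and Il7r, Maf, Ccr6 and Ramp1, 8 had a listed start (not Blk and Maf), with 11 starts between them, and 3 of the 11 held it, on either strand, in the 200 bases before the start. Across all 32851 RefSeq promoters 11.4% held it. Only the 3 windows that held it are shown, with the half-site or its reverse complement TGACCT in capitals (RefSeq, GRCm38.p6). The windows are chr1:20730705-20730904 (+ strand) for Il17a, chr1:20784271-20784470 (- strand) for Il17f, where longer transcripts start farther out, and chr17:8235843-8236042 (+ strand) for Ccr6, which has 2 listed starts.
Il17a: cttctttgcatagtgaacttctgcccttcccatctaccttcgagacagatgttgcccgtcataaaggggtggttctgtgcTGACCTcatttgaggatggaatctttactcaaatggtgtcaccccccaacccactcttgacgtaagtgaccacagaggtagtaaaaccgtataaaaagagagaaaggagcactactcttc
Il17f: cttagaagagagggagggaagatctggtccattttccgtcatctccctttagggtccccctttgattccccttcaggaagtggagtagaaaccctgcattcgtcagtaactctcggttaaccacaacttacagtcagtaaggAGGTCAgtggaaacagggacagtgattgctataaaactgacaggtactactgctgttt
Ccr6: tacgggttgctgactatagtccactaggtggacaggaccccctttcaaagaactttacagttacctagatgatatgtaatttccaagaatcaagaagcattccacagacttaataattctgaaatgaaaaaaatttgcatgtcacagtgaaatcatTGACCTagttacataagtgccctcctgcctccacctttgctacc
The match lay 120 to 115 bases before the start of Il17a, 58 to 53 before that of Il17f and 44 to 39 before that of Ccr6. A match describes these letters only, and binding was not measured.

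Cells entered the gate mostly through 1 of 2 receptor genes rather than through cytokines. Cd163l1 had a UMI in 95 of the 193 cells and 5830411N06Rik in 78, but only 8 cells had both. Il17f was found in 40 cells, Sox13 in 32, Blk in 31 and Il17a in 28. Cd163l1 alone held every gate UMI of 64 cells, and 5830411N06Rik alone that of 38. Neither Il17a nor Il17f was seen in 136 cells (70.5%, 63.5 to 76.8%).

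Summed over gated cells, levels in CPM (UMIs of a gene per 1000000 UMIs of the summed cells) were 312 and 269 for Il17a after isotype and Skint1 antibody, respectively, and 161 and 213 for Il17f. 5830411N06Rik stood at 235 and 285 CPM and Cd163l1 at 278 and 260 CPM. Blk (48.6 and 47 CPM) and Sox13 (35.5 and 31.3 CPM) were present in both libraries. In barcodes of 1 to 100 UMIs, which hold free RNA, Il17a stood at 5.08 and 6.11 CPM, Cd163l1 at 21.2 and 23.8 CPM and 5830411N06Rik at 15 and 11.3 CPM.

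At the lower edge of the gate the cells were mostly like DETCs. Among cells that passed the CD3 and αβ criteria, at least 3 UMIs of Cd7 and Fcer1g were found in 83.7% of the 184 cells with 2 gate UMIs (just outside) and in 75.7% of the 74 cells with 3 (just inside). The share was 53.3% of the 45 cells with 4 gate UMIs, 41.5% of the 53 with 5 to 9 and 57.1% of the 21 with 10 or more. At least 2 UMIs of Il7r, Maf, Ccr6 and Ramp1 were found in 25.5%, 33.8%, 62.2%, 71.7% and 95.2% of these cells, respectively. Cells with no gate UMI had 96.8% and 6.37%. Median depth was 4780 UMIs with 2 gate UMIs and 6010 with 10 or more.

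**Figure D1:**
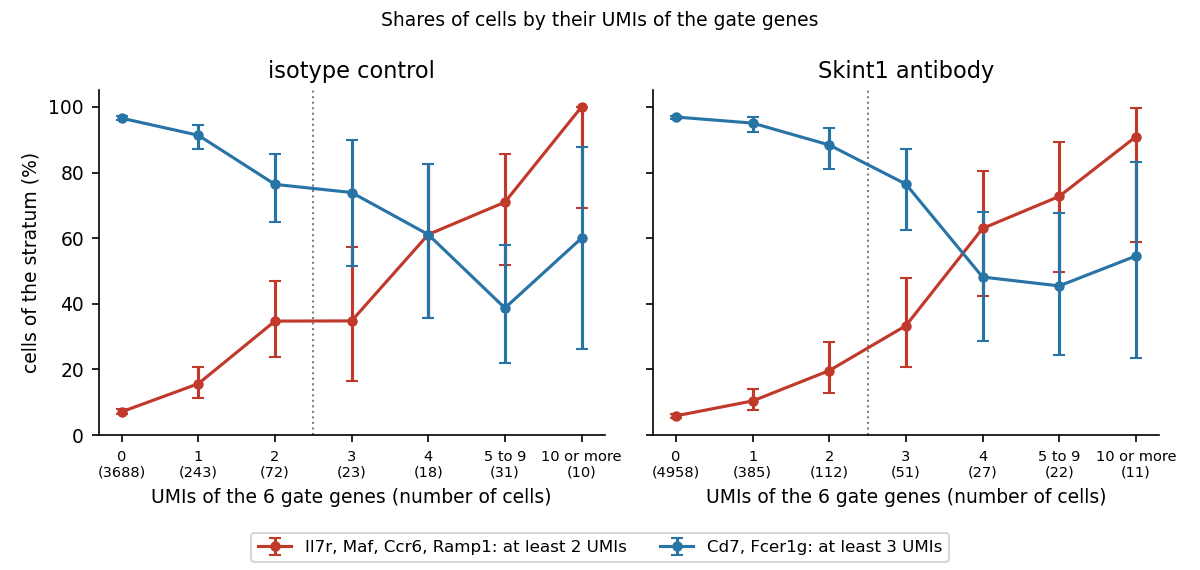
Share of CD3-positive cells without Trac, Cd4 or Cd8a (y axis, %, with exact 95% intervals) that carried Il7r, Maf, Ccr6 and Ramp1 (at least 2 UMIs) or Cd7 and Fcer1g (at least 3 UMIs), by the number of gate-gene UMIs (x axis), for each library. The first share was 33.8% at 3 gate UMIs and 95.2% at 10 or more, the second 75.7% and 57.1%.

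The gated cells fell into 3 kinds, divided after their values were seen and hence compared without a test. Il7r/Ramp1 cells numbered 36 and 43 (isotype and Skint1 antibody), Cd7/Fcer1g cells 31 and 51, and cells with both 15 and 17. Every gated cell fell into a kind. As background, 99.6% of DETCs met the Cd7/Fcer1g criterion, 3.99% the Il7r/Ramp1 criterion and 3.93% both. Of the αβ T cells in the libraries, 69.5% met the Il7r/Ramp1 criterion and 6.32% the Cd7/Fcer1g criterion.

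The kinds differed in the gate genes that admitted them. 5830411N06Rik and Blk had no UMI in the 82 Cd7/Fcer1g cells, and 54 of these 82 entered on Cd163l1 alone and 17 on Il17f alone. In contrast, 33 of 79 Il7r/Ramp1 cells entered on 5830411N06Rik alone. Il17a or Il17f was found in 21 of the 79 Il7r/Ramp1 cells, in 25 of the 82 Cd7/Fcer1g cells and in 11 of the 32 cells with both.

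The CD3 genes Cd3d, Cd3e and Cd3g, which the gate required at a low level, divided them too. Il7r/Ramp1 cells had a median of 11.5 and 7 UMIs of these genes, close to the 11 and 11 of αβ T cells, whereas Cd7/Fcer1g cells had 71 and 62, close to the 68 and 61 of DETCs. Cells with both had 76 and 70. They were also the deepest cells, at a median of 7807 and 8695 UMIs. Among the cells marked for the highest Scrublet doublet scores were 11 of the 32 (34.4%), against 0 of the Il7r/Ramp1 cells, 2 of the Cd7/Fcer1g cells and 4.67% of DETCs. The number marked per library was fixed by its size, and Scrublet's own threshold marked 1 and 0 cells. The part of doublets in these cells was not tested further.

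**Figure D2:**
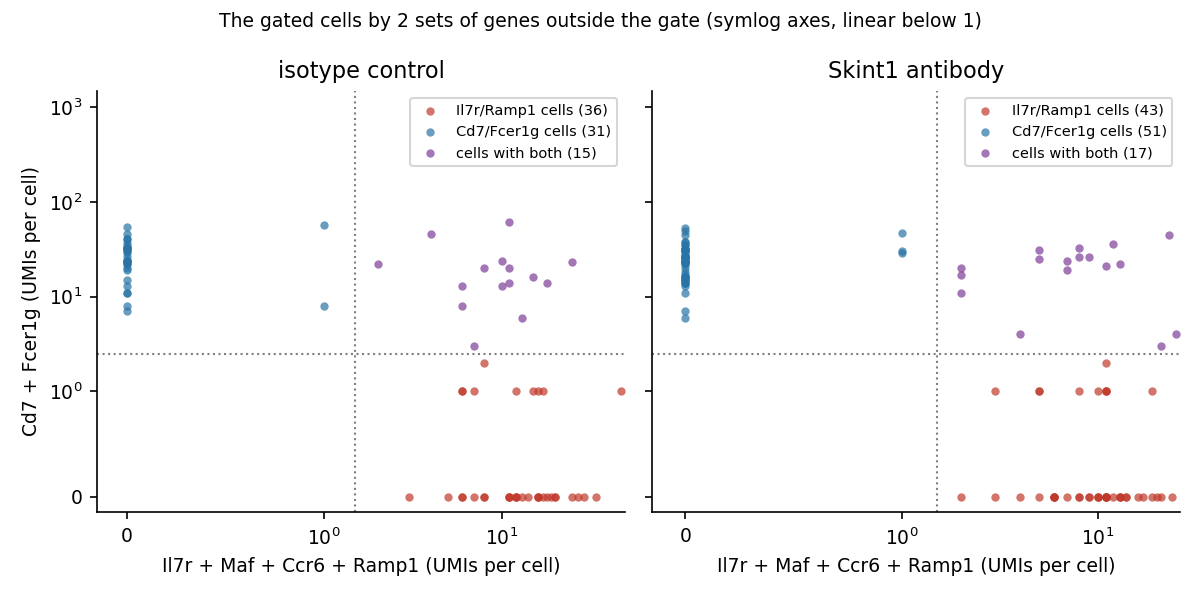
Each point is 1 gated cell, placed by its UMIs of Il7r, Maf, Ccr6 and Ramp1 and by its UMIs of Cd7 and Fcer1g, per library (axes logarithmic above 1 UMI and linear below, dotted lines at the thresholds). The 79 Il7r/Ramp1 cells and the 82 Cd7/Fcer1g cells lie along separate axes, and 32 cells lie above both thresholds.

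Genes that neither the gate nor the division read followed the same line. Prf1, which encodes perforin, stood at 4.53 and 0 CPM in Il7r/Ramp1 cells of the isotype and Skint1 antibody libraries, at 684 and 365 CPM in Cd7/Fcer1g cells and at 612 and 620.2 CPM in DETCs. Trat1, a TCR adaptor gene, had 9.07 and 0, 1160.4 and 1017 and 1148 and 1089 CPM, and Fermt2, encoding an integrin activator, had 9.07 and 0, 954 and 719.9 and 916 and 879 CPM, in the same order. In each of these genes both sums of Cd7/Fcer1g cells lay above both sums of Il7r/Ramp1 cells. In the Skint1 antibody library the Cd7/Fcer1g cells lay below DETCs in all 3 genes. Trat1 and Fermt2 lie outside the rule for named genes and were picked with their values in view. The transcription factor gene Rora ran the other way, with 345 and 267 CPM in Il7r/Ramp1 cells, 17.2 and 14.3 CPM in Cd7/Fcer1g cells and 17.5 and 15 CPM in DETCs.

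To see what set the gated cells apart within the same sort, their summed UMIs per library were compared with those of DETCs. Among named genes, Il7r, Ccr6, Ramp1, Maf and Cxcr6 were higher in gated cells, while Trdv4, Prf1, Cd7 and Xcl1 were lower. In edgeR's quasi-likelihood test on 5562 genes that left out the 13 genes read by the gates, 399 were higher in gated cells (7.17%) and 447 lower (8.04%) at an adjusted p under 0.05, or 15.2% in either direction. Cells were summed per library and the library entered as block. These p-values therefore rest on how differences among the 4 cell groups of the fit varied between 2 libraries. Within a library both cell groups shared animals and preparation. Each library had its own treatment, so no spread between replicates of a treatment was measured. With at most 5% mitochondrial UMIs, which left 24 and 24 gated cells, 81 genes were higher and 21 lower. After thinning to 2000 UMIs the numbers were 290 and 211, and by DESeq2 they were 308 and 197. The test took genes with a mean of at least 20 CPM over both cell groups, so a gene under 20 CPM in one group was tested only through the other, where its mean was higher by construction. Counts and medians of the lists below therefore describe the genes tested, not the lists, here and against αβ T cells. Lists against DETCs are set beside the 7.17% higher and 8.04% lower over all genes tested, where the median log2 fold change was -0.03. Because the set holds all 3 kinds, levels in the kinds are given beside the differences, as descriptions.

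Several cytokine and chemokine receptors of type 17 cells were higher in gated cells. Of 13 members 7 passed the filter on low values, and of these 5 were higher and 0 lower, with a median log2 fold change of 3.87. Of these 5, the 4 genes Il7r, Ccr6, Il18r1 and Il18rap passed that filter through gated cells alone. Their higher mean was thus set by the filter, and the median is the value of Il18rap, 1 of the 4. Il7r, the IL-7 receptor α chain, stood at 396 and 349 CPM in gated cells of the isotype and Skint1 antibody libraries and at 5.57 and 5.09 CPM in DETCs, a log2 fold change of 6.15 ± 0.22 (SE, edgeR adjusted p = 5.3e-13). Both gated sums lay above both DETC sums. The difference was 7.16 with marked doublets left out, 6.99 with at most 2500 genes per cell and 6.85 with cells weighted equally. Ccr6, the receptor for CCL20, had 149 and 90.8 against 2.5 and 2.03 CPM (5.73 ± 0.31, adjusted p = 1.7e-10). The IL-18 receptor genes Il18r1 (5.06 ± 0.24) and Il18rap (3.87 ± 0.43) and the chemokine receptor gene Cxcr6 (1.23 ± 0.17) were higher as well. Ccr2 and Il12rb1 did not pass the test, and Il23r, with 26.2 and 4.7 CPM in gated cells, was too low to be tested.

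Il7r was found in 54.9% and 46.8% of gated cells, or 41.5% and 36.4% when each cell was thinned to 2000 UMIs, which left out 0 gated isotype cells and 1 Skint1 antibody cell. Among DETCs, 0.961% and 0.846% had a UMI, and 0.58% and 0.614% after thinning. Il18r1 had no UMI in Cd7/Fcer1g cells of either library and 231 and 248 CPM in Il7r/Ramp1 cells.

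Of the effector and surface genes of type 17 cells, 14 of 16 tested were higher and 0 lower (median 1.63), against 7.17% higher over all genes tested. Of the 14, the 4 genes Ramp1, Aqp3, Icos and Serpinb1a were under 20 CPM in DETCs and passed the filter through gated cells alone. Ramp1, a component of the receptor for the neuropeptide CGRP, stood at 467 and 341 CPM against 17.2 and 11.1 CPM in DETCs (4.87 ± 0.16, adjusted p = 2.6e-13), with all gated sums above all DETC sums. The glycerol channel gene Aqp3 (4.21 ± 0.30), the protease inhibitor gene Serpinb1a (133 and 54.8 against 7.55 and 8.58 CPM) and the costimulatory receptor gene Icos (3.29 ± 0.24) followed. Tmem176a (2.81 ± 0.16) and Tmem176b (2.39 ± 0.18), which encode membrane proteins, were also higher. Among cytokines of the list, Ltb (1.46 ± 0.15), Csf2 (1.28 ± 0.28), Lta (0.91 ± 0.28) and Tnf (0.84 ± 0.15) were higher. Capg and S100a4 did not pass the test. Serpinb1a stood at 281 and 117 CPM in Il7r/Ramp1 cells but at 5.74 and 14.3 CPM in Cd7/Fcer1g cells.

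Il22 was called higher (2.26 ± 0.58, adjusted p = 0.012), yet its libraries disagreed. Gated cells held 18.7 and 304 CPM and DETCs 42.2 and 27.5 CPM, so that the gated sum lay below that of DETCs after isotype control and above it after Skint1 antibody. Of the 194 UMIs in the Skint1 antibody library, 92.3% came from cells with both Il7r/Ramp1 and Cd7/Fcer1g genes, chiefly from 2 cells.

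Transcription factor genes of the type 17 program were divided. Of 9 tested, 5 were higher and 1 lower (median 0.52). Rora (3.26 ± 0.20) and Maf (2.94 ± 0.17), which encode the factors RORα and c-MAF, rose most within the list, followed by Nfkbiz (1.52 ± 0.23), Rbpj (0.74 ± 0.16) and Id2 (0.52 ± 0.13). Ahr, the aryl hydrocarbon receptor gene, was lower (-0.62 ± 0.15). Hif1a, Batf and Stat3 did not pass.

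**Figure D3:**
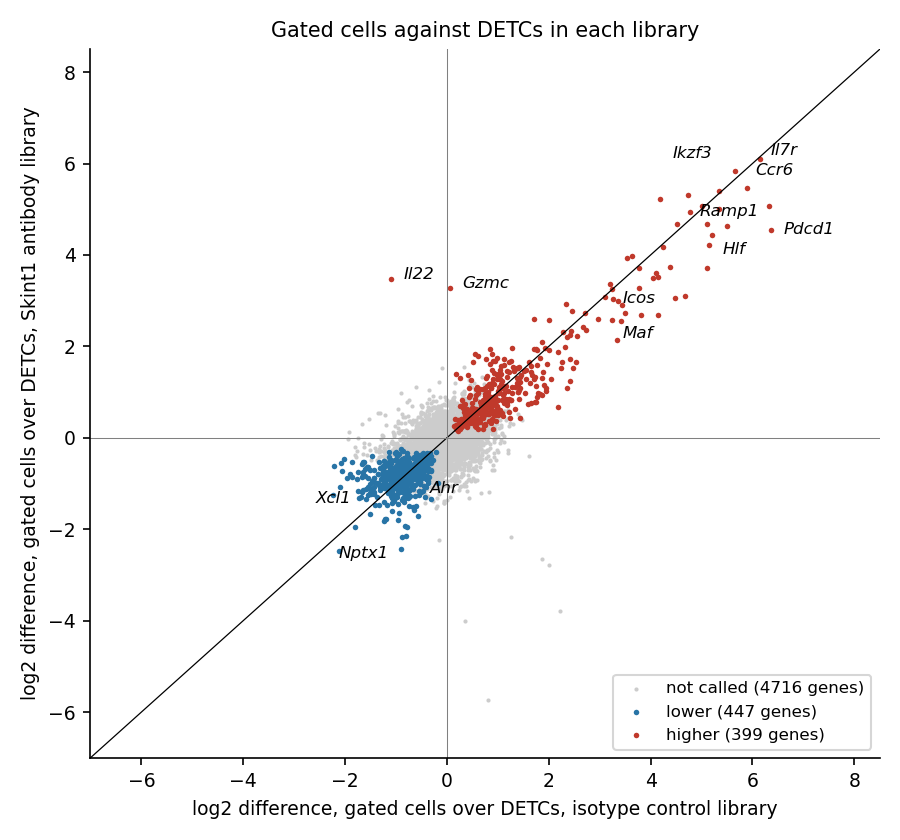
Log2 difference of gated cells over DETCs within the isotype control library (x axis) and within the Skint1 antibody library (y axis) for each gene tested, with the 399 genes called higher in red, the 447 called lower in blue and the rest in grey. Most called genes lie near the diagonal, whereas Il22 is below DETCs in the isotype control library and above them in the other.

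DETC genes were mostly lower. Of 18 tested, 11 were lower and 2 higher (median -0.74). Xcl1, a chemokine that attracts cross-presenting dendritic cells, stood at 97.2 and 37.6 CPM in gated cells and at 294 and 96.3 CPM in DETCs (-1.49 ± 0.17, adjusted p = 3.5e-06). Each gated sum lay below the DETC sum of its own library. Fcer1g (-1.07 ± 0.26), Cd7 (-1.12 ± 0.20), Cd244 (-1.10 ± 0.19), Nkg7 (-1.04 ± 0.15), the NKG2D gene Klrk1 (-0.85 ± 0.15) and Il13 (-0.64 ± 0.17) were lower. Jaml, the receptor for the keratinocyte ligand CAR, was higher (1.54 ± 0.16), at 508 and 437 CPM in Il7r/Ramp1 cells and 97.7 and 100.3 CPM in Cd7/Fcer1g cells against 108 and 88.3 CPM in DETCs. Gzmc, the other gene called higher (1.61 ± 0.52, adjusted p = 0.042), rested on 1 Skint1 antibody cell that held 583 of 633 UMIs. Il2rb, Gzmb, Areg, Tnfrsf9 and Itgae did not pass.

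Of the 6 type 1 and cytotoxic genes tested, 4 were lower and 0 higher (median -0.84), namely Prf1 (-1.19 ± 0.17), Nkg7, Ctsw (-0.67 ± 0.14) and Klrd1 (-1.01 ± 0.22). Klrd1, encoding CD94, had 18.1 and 9.71 CPM in Il7r/Ramp1 cells and 442 and 612 CPM in Cd7/Fcer1g cells. Of the type 2 genes tested (3), Gata3 was higher (0.80 ± 0.16), Il13 was lower and Areg did not pass (median -0.32).

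By size alone, the genes furthest above DETCs with a mean of at least 50 CPM in the higher cell group were Il7r, Ikzf3 (5.75 ± 0.37), Ccr6, Tnfrsf25 (5.72 ± 0.42), Pxdc1 (5.39 ± 0.22), Il18r1, Cd84 (5.05 ± 0.31), Ramp1, Hlf (4.84 ± 0.20) and Timp2 (4.77 ± 0.27). All of these genes were under 20 CPM in DETCs and were thus tested through gated cells alone. Ikzf3 encodes the lymphoid factor Aiolos, Tnfrsf25 the death receptor DR3, the receptor for TL1A, and Hlf a bZIP transcription factor. Ikzf3, Tnfrsf25, Cd84 and Hlf had no UMI in Cd7/Fcer1g cells in either library. Hlf, for example, stood at 449 and 374 CPM in Il7r/Ramp1 cells, 6.21 and 7.07 CPM in DETCs and 160 and 216 CPM in αβ T cells.

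With the same minimum of 50 CPM, here in DETCs, the genes furthest below were Nptx1 (-1.61 ± 0.32), Ripor2 (-1.52 ± 0.29), Cyb561 (-1.52 ± 0.28), Xcl1, Stac2 (-1.49 ± 0.31), Rcn3 (-1.47 ± 0.20), Ighm (-1.44 ± 0.30), Crtam (-1.43 ± 0.26), Gm38414 (-1.39 ± 0.22) and Mbip (-1.38 ± 0.27). Crtam encodes a receptor of cytotoxic lymphocytes. Sizes are not compared with those of genes above DETCs, which were tested through gated cells alone. Of the gated cells, 59.1% met the Cd7/Fcer1g criterion, as did 99.6% of DETCs, which limits how far a DETC gene can fall in their sum. The order of the genes below DETCs is not firm. Nptx1 was -0.89 in the isotype library alone and -2.44 in the Skint1 antibody library alone, and Stac2 was -0.88 and -2.17. Nptx1 and Ripor2 lost their calls with at most 5% mitochondrial UMIs, as did 39 of the 70 genes named against DETCs in all, these 2 included. Nptx1 had 57.4 and 10.7 CPM in Cd7/Fcer1g cells and no UMI in Il7r/Ramp1 cells.

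**Figure D4:**
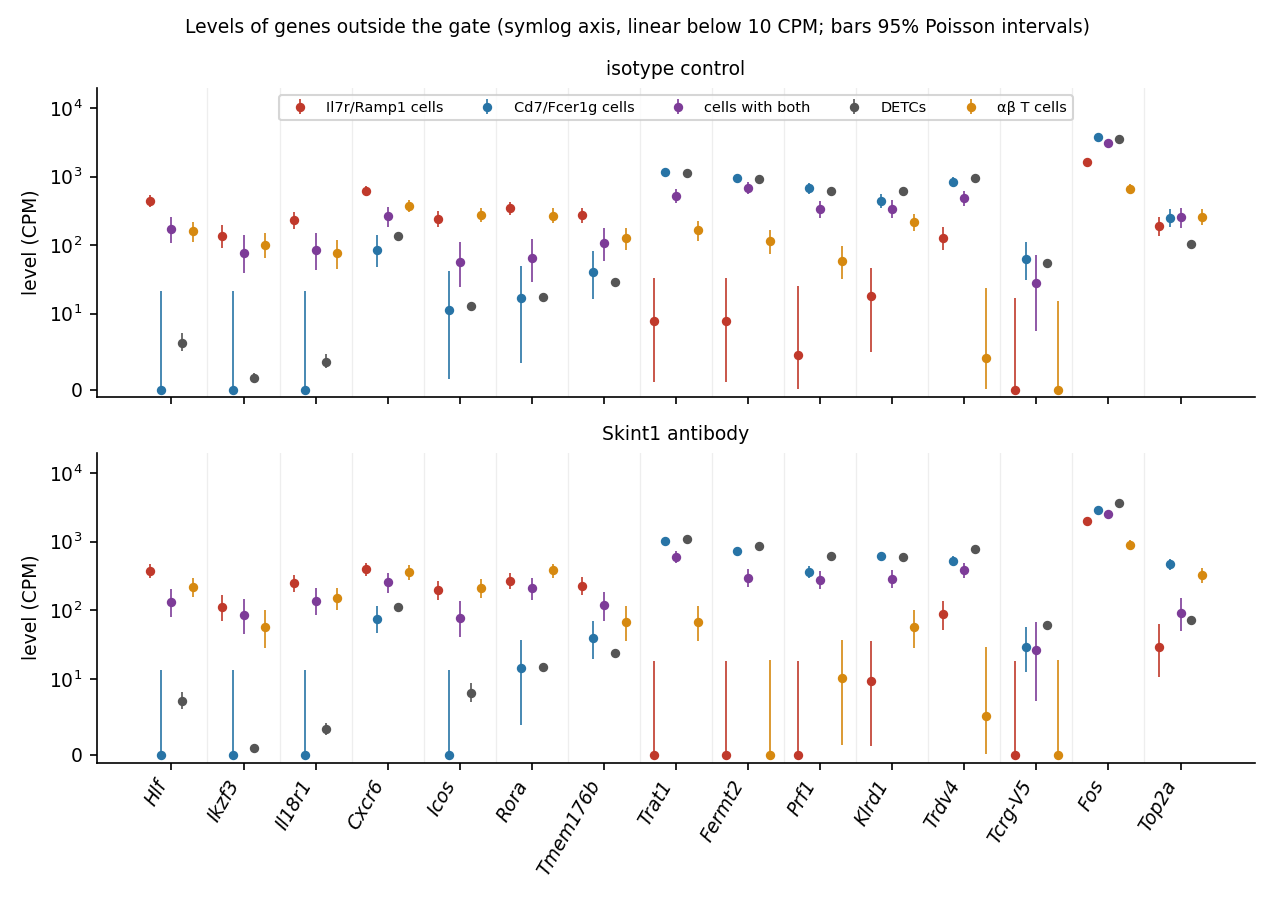
Levels in CPM (y axis, logarithmic above 10 CPM and linear below) of 15 genes outside the gate in the 3 kinds of gated cells, DETCs and αβ T cells, per library, with 95% Poisson intervals. Cd7/Fcer1g cells have no UMI of Hlf, Ikzf3 and Il18r1, and lie above Il7r/Ramp1 cells in Trat1, Fermt2, Prf1 and Klrd1, genes in which Il7r/Ramp1 cells are at or below 18.1 CPM.

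Among other groups, proliferation genes were higher, with 5 of 7 called and 0 lower (median 1.35), including Top2a (1.42 ± 0.20) and Mki67 (170 and 133 against 63.9 and 45.6 CPM). Top2a stood at 253 and 466 CPM in Cd7/Fcer1g cells and at 190.4 and 29.1 CPM in Il7r/Ramp1 cells, against 106 and 71.6 CPM in DETCs. Of 12 TCR signalling genes, 5 were lower and 0 higher (median -0.39), with Lck at -0.77 ± 0.15 and Cd247, the ζ chain gene, at -0.70 ± 0.13. Of 13 immediate early genes, 5 were lower and 0 higher (median -0.21), with Fos at -0.43 ± 0.09 and Jun at -0.53 ± 0.11. Over all genes tested 7.17% were higher and 8.04% lower (median -0.03).

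Of 10 homing genes, Cxcr4 (3.81 ± 0.21), Klf2 (1.20 ± 0.27) and Cd69 (0.61 ± 0.11) were higher and Rgs1 and Vim lower (median -0.09). Glycolysis genes were divided, with 4 of 10 higher, among them Ldha (0.78 ± 0.13), and Hk2 lower (-0.69 ± 0.14; median 0.31). Of 5 lipid handling genes, Fabp5, a fatty acid carrier, was higher (1.32 ± 0.24; median 0.10). Of 9 inhibitory receptor genes 3 were tested, of which Cd160 was lower and Pdcd1, encoding PD-1, was higher (5.65 ± 0.68; median -0.60). Pdcd1, Cxcr4, Rora, Cdk1 and Cd74 were likewise tested through gated cells alone.

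Markers of other cells were also read. Of 3 keratinocyte markers tested, Krt10, tested through DETCs alone, was lower (-2.44 ± 0.23) and Krt5 and Krt14 did not pass (median 0.72), and 256 of 258 Krt14 UMIs of the gated isotype cells came from 1 cell. Cd74 was the myeloid marker tested (1 gene) and was higher (2.34 ± 0.38), with Lyz2, Csf3r, Itgam and Cd207 at 0 UMIs in gated cells. The αβ markers Trbc1 and Trbc2 (2 genes) did not pass (median -0.20). Of 2 innate lymphoid markers, Gata3 was higher and Klrb1b lower (median -0.14).

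Gated cells were next compared with the 52 and 43 αβ T cells of the libraries, and no receptor gene of type 17 cells passed the test in this contrast. The αβ T cells had at least 3 UMIs of Trac and at most 2 of Trdc. In the same edgeR fit, 248 of 5400 genes were higher (4.59%) and 200 lower (3.7%), or 8.3% in either direction. Of 10 type 17 receptor genes 0 passed in edgeR in either direction, and at an unadjusted p under 0.05 there were 0 higher and 2 lower (median -0.11, against -0.01 over all genes tested). Il7r differed by 0.38 ± 0.24 (adjusted p = 0.4), Ccr6 by 0.64 ± 0.38 (adjusted p = 0.37), and Ramp1 of the effector list by 0.20 ± 0.18 (adjusted p = 0.61). A test that was not passed does not show equal levels, and αβ T cells had 173 and 402 CPM of Il7r, 46.3 and 108 CPM of Ccr6 and 375 and 319 CPM of Ramp1.

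Of 9 transcription factor genes of the type 17 list, 5 were lower than in αβ T cells and 0 higher (median -0.79), including Hif1a (-1.45 ± 0.25), Rora (-1.11 ± 0.22) and Maf (-0.64 ± 0.19). These values are sums over all kinds, and Rora differed between kinds as given above. Maf, which the division read, was found in 29 of 36 and 33 of 43 Il7r/Ramp1 cells and in 0 of 31 and 2 of 51 Cd7/Fcer1g cells. The kinds were not tested against αβ T cells. Of 16 effector and surface genes, Icos (-1.31 ± 0.26) and Cd44 (-0.80 ± 0.15) were lower and 0 were higher (median 0.20). Of 17 DETC genes tested, 11 were called higher and 1 lower, Tnfrsf9 (median 1.01). Trdv4, Gzmc and Xcl1, 3 of the 11, were tested through gated cells alone, and Gzmc rested on the single Skint1 antibody cell named above. Of 13 γδ TCR genes 5 were tested and 4 were higher (median 2.61), but 3 of the 4, Trdv4 (6.40 ± 0.43), Tcrg-C1 (5.03 ± 0.29) and Trgv2, were tested through gated cells alone.

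Of 13 immediate early genes 7 were higher than in αβ T cells and 0 lower (median 0.67), with Fos at 1.71 ± 0.11 and Jun at 2.42 ± 0.18. Of 10 cytotoxic genes, Prf1, Nkg7 and Ctsw were higher and Ccl5, Ifng, Ccl3 and Ccl4 lower (median 0.18), all 4 of the latter tested through αβ T cells alone. Ifng had no UMI in gated cells, which allows up to 6.89 and 5.78 CPM, and 33.7 and 144 CPM in αβ T cells. Of 15 TCR signalling genes, Cd247 was higher and Cd28, Cd6, Cd5 and Cd2 lower (median -0.18), of which Cd28, Cd6 and Cd5 were tested through αβ T cells alone. Of 12 glycolysis genes 5 were lower and 1 higher (median -0.73), and of 11 homing genes 5 were lower and 2 higher (median -0.15). Of the lower genes, Slc2a3 of the first list and Ccr7 of the second were tested through αβ T cells alone.

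Of the type 2 genes tested (4), Areg and Il13 were higher and Il1rl1, tested through αβ T cells alone, was lower (median 0.29). Of 7 proliferation genes 0 passed in edgeR, with 1 lower at an unadjusted p under 0.05 (median -0.35), 1 of 5 lipid handling genes, Fabp5, was lower (median -0.17), and of 4 inhibitory receptor genes Ctla4, tested through αβ T cells alone, was lower (median 0.59). Of αβ markers outside the gate, Cd28, Cd5, Trbc2 and Cd8b1 were lower (4 of 5, median -4.41). The groups had been chosen on Trac, and gated cells also on having no Cd4 or Cd8a, so these values describe that choice, and Cd28, Cd5 and Cd8b1 were tested through αβ T cells alone. Of innate lymphoid markers (3 tested), Klrb1b was higher and Il1rl1 lower (median -0.43), each tested only through the group in which it was higher. Cd74 did not pass, and the keratinocyte values rested on the single isotype cell described above.

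The receptor chains were compared next. Of 6 γδ TCR genes tested against DETCs, 4 were lower and 0 higher (median -0.85), with Trdv4 at -1.09 ± 0.14 and Tcrg-C1 at -1.11 ± 0.12. Trdc, the δ constant chain, which DETCs were required to have and gated cells were not, stood at 757 and 544 CPM in Il7r/Ramp1 cells, 4033 and 3453 CPM in Cd7/Fcer1g cells and 4546 and 3748 CPM in DETCs. Free RNA held 2228 and 1895 CPM of it. Trdc was absent from 30 of 79 Il7r/Ramp1 cells and from 1 of 82 Cd7/Fcer1g cells, so γδ identity was not shown by transcript for every gated cell.

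Trdv4, which encodes the Vδ1 chain of DETCs, was found in 63 of 82 Cd7/Fcer1g cells, 25 of 32 cells with both and 23 of 79 Il7r/Ramp1 cells. Its level was 833 and 530.1 CPM in Cd7/Fcer1g cells, 127 and 87.4 CPM in Il7r/Ramp1 cells and 957 and 782 CPM in DETCs. Free RNA had 178 and 181 CPM and αβ T cells 4.21 and 5.15 CPM. Tcrg-V5, the Vγ5 chain of DETCs, had no UMI in the 79 Il7r/Ramp1 cells, which allows up to 4.56% of cells with a UMI, and was found in 18 of 82 Cd7/Fcer1g cells (22%). The γ constant gene Tcrg-C1 was found in 79 of 82 Cd7/Fcer1g cells and 25 of 79 Il7r/Ramp1 cells.

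Il7r/Ramp1 cells without Trdc were described further, with no test. Of the 30, 25 carried 5830411N06Rik and not Cd163l1. Il17a or Il17f was found in 3 of these 30 cells and in 18 of the 49 with Trdc. Cd3d stood at 84.4 and 79.8 CPM in cells without Trdc and 471 and 511 CPM in those with it, and Cd3g at 726 and 1177 and 1618 and 1599 CPM. What sets these cells apart was not tested.

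Cytokine transcripts were held by few cells. The 167 Il17a UMIs of the isotype library came from 15 cells, of which 5 held 77.2%, and the 172 of the Skint1 antibody library came from 13 cells, of which 5 held 81.4%. The highest cells had 38 and 61 UMIs. At least 10 Il17a UMIs were found in 9 cells, 4 of them Il7r/Ramp1 cells, 0 Cd7/Fcer1g cells and 5 cells with both. Il17a and Il17f occurred together in 11 of the 57 cells that had either.

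By kind, Il17a stood at 394 and 243 CPM in Il7r/Ramp1 cells, 68.9 and 43 CPM in Cd7/Fcer1g cells and 484 and 717 CPM in cells with both. Il17f stood at 122 and 136, 229.8 and 218 and 135 and 306 CPM in the same order. The last value rested on 1 Skint1 antibody cell, which held 45 of the 47 Il17f UMIs. Cells with both, 16.6% of the set, thus held 40.7% of Il17a UMIs after isotype control and 64% after Skint1 antibody. After Skint1 antibody 61 of their 110 Il17a UMIs lay in 1 cell. These deep cells also held 294007 of the 1173761 UMIs of all gated cells.

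Il22, which signals to keratinocytes, was found in 2 and 8 gated cells. Of the 194 UMIs after Skint1 antibody, 111 lay in a single cell, which also had 61 Il17a, 45 Il17f, 5 5830411N06Rik, 13 Trdc and 31 Cd7 and Fcer1g UMIs among 9408, and another cell held 66. Neither was marked as a doublet. The share of gated cells with Il22 was 2.44% and 7.21%, and 2.44% and 3.64% after thinning. In DETCs it was 2.75% and 1.97%, and 2.18% and 1.56% after thinning, and the exact intervals of the thinned shares overlapped between gated cells and DETCs in both libraries.

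**Figure D5:**
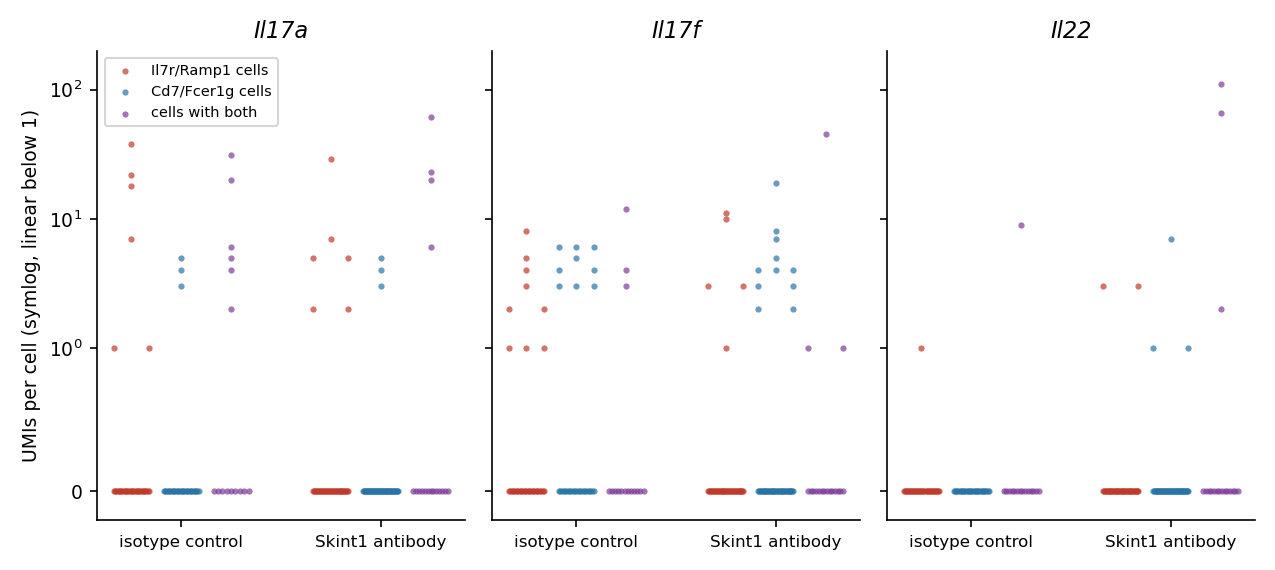
UMIs of Il17a, Il17f and Il22 in each gated cell (y axis, logarithmic above 1 UMI and linear below), per library and kind. Most cells lie at 0, and single cells reach 61 Il17a, 45 Il17f and 111 Il22 UMIs.

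To see whether the gated cells differed after Skint1 antibody, levels in the 2 libraries were set side by side. With 1 library per treatment there was no test, and intervals speak of these libraries, not of the treatment. The median log2 ratio of Skint1 antibody over isotype control was -0.04 over 4795 genes. The share of cells gated was 1.74% and 1.73%, but 0.871% and 0.514% at a gate of at least 5 UMIs. The criterion on Trac, Cd4 and Cd8a had kept out 54 isotype and 28 Skint1 antibody cells with the gate genes.

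Ratios of the gate genes were small. Il17a differed by -0.21 on the log2 scale (95% interval -0.53 to 0.10), 5830411N06Rik by 0.28 (-0.06 to 0.62) and Cd163l1 by -0.10 (-0.43 to 0.23), and these intervals included 0. Il17f was higher after Skint1 antibody by 0.41 (0.01 to 0.81), but the ratio was -0.057 after thinning. Both cytokine ratios depend on single cells. After Skint1 antibody 1 cell held 61 of 172 Il17a UMIs and 45 of 136 Il17f UMIs. In the isotype library 1 cell held 38 of 167 Il17a UMIs. The share of gated cells with Il17a was 18.3% and 11.7% (13.4% and 11.8% after thinning), and that with Il17f 25.6% and 17.1% (22% and 12.7%). The level of Il17f thus ran against its share of positive cells, and no order is read from it. DETCs had none of either gene by their gate.

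Outside the gate genes, Il7r differed by -0.18 (-0.46 to 0.10) and Il23r, with few UMIs, by -2.48 (-4.92 to -0.64). The largest ratios among genes with at least 30 UMIs were those of Krt14 (-6.27), Lgals7 (-4.64) and Krt5 (-4.56), epithelial genes of which over 98% of isotype UMIs came from 1 cell. Ltb4r1, the leukotriene B4 receptor gene, had 26 and 5 UMIs (-2.63, -4.37 to -1.23), and Pdcd1 had 34 and 10 (-2.02, -3.20 to -0.97). In DETCs these genes had ratios of -0.998 (-2.74 to 0.60) and -0.15 (-1.35 to 1.05).

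Highest after Skint1 antibody were Il22 (4.02, 3.11 to 5.11), Gzmc (2.05, 1.78 to 2.34), Keap1 (1.86, 0.55 to 3.43), Bbc3 (1.86, 0.55 to 3.43) and Hist1h4i (1.75, 0.52 to 3.18). Il22 and Gzmc rested on the single cells described above, and in DETCs their ratios were -0.62 and -1.16. Bbc3, encoding the apoptosis factor PUMA, Keap1, a sensor of oxidative stress, and Hist1h4i, a histone gene, had 6, 6 and 7 UMIs in the isotype library and 26, 26 and 28 after Skint1 antibody.

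Within Il7r/Ramp1 cells alone, 5830411N06Rik was higher after Skint1 antibody by 0.61 (0.22 to 1), while Cd163l1 was lower (-1.11, -1.97 to -0.31). Il17a, found in 6 and 6 of these cells, had a ratio of -0.70 (-1.23 to -0.18), but 38 of its 87 isotype UMIs lay in 1 cell, and without that cell the ratio was 0.10. The share of these cells with 5830411N06Rik and not Cd163l1 was 21 of 36 (58.3%, 40.8 to 74.5%) after isotype control and 35 of 43 (81.4%, 66.6 to 91.6%) after Skint1 antibody. The share without Trdc was 9 of 36 (25%, 12.1 to 42.2%) and 21 of 43 (48.8%, 33.3 to 64.5%). Both pairs of intervals overlapped.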

How the data were processed

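Per the labels, both libraries were processed with Cell Ranger against GRCm38 (mm10), and the deposited matrices hold raw UMI counts per gene and barcode, with no normalization by the authors. Total counts were 27272211 and 32450957 UMIs. Barcodes with at least 500 genes (4896 and 6594) and at most 12% mitochondrial UMIs were kept, and doublets were marked by Scrublet at 0.8% per 1000 barcodes (177 and 330 cells) but not removed, since its own threshold marked 1 and 0. Counts were summed per library over 4 cell groups (gated cells, DETCs, αβ T cells and CD3-negative lymphoid-like cells). The last group also took in keratinocytes and served only the estimate of spread, so no comparison with it is given.

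The 8 sums were fitted in edgeR 4.0.16 (quasi-likelihood, TMM, library as block, at least 20 CPM, Benjamini-Hochberg over all genes tested). DESeq2 1.42.0 was an alternative, as were other filters, scalings and gates. On simulated counts for the contrast with DETCs, 73 of 95 genes changed 2-fold and 87 of 87 changed 4-fold were recovered, with 7 false calls among 5349 unchanged genes. The simulation gave all groups the same profile except for 200 changed genes, and all genes 1 common dispersion (0.0077). It held no single cells that carry most UMIs of a gene, so these rates need not hold for the real sums. Intervals are exact (Poisson, Clopper-Pearson or conditional binomial, 95%). Thinning drew 2000 UMIs per cell with a fixed seed.

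Members and gene lists were chosen with earlier results of these data known. Text names the gate genes, list genes with at least 5 UMIs, the 10 genes with the largest difference from DETCs in each direction among those called with the same direction in both libraries and at least 50 CPM in the higher group, and the 5 with the largest ratio in each direction between libraries among genes of at least 30 UMIs. Positions are those of GENCODE vM21, and promoter sequences come from RefSeq. Python 3.11.15, scanpy 1.11.5 and R 4.3.3 were used.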

Additional observations from a re-analysis of the deposited data

Results flagged for a closer look

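Il22 was the 1 result singled out for opposite directions in the 2 libraries. The log2 difference of gated cells from DETCs was -1.17 after isotype control and 3.46 after Skint1 antibody. This difference between the libraries was not tested, since each treatment had 1 library. After Skint1 antibody, 111 and 66 of the 194 Il22 UMIs of gated cells lay in 2 cells.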

How the results depend on the processing

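The number of genes called against DETCs (399 higher, 447 lower) held within 1.5 times under most alternatives, among them at most 2500 genes per cell (353 and 334), a gate of at least 2 or at least 5 UMIs (301 and 326, 363 and 324), removal of marked doublets (391 and 425) and no low-count filter (552 and 480). It fell to 81 and 21 with at most 5% mitochondrial UMIs, where only 24 cells per library were left. After thinning 211 were lower, and by DESeq2 197 were lower. With no replicate block for the library, 382 were higher and 453 lower, so the block changed the counts little. Cleaning the CD3-negative group of keratinocytes gave 345 and 368, and leaving it out 403 and 467, both chosen after seeing the data. Of the 70 genes named and tested against DETCs, called or not, 39 lost their call with at most 5% mitochondrial UMIs. DESeq2 lost 10 and thinning 8, and 0 changed direction under these settings. The fold of 14 named genes moved by over 1.5 times with at most 2500 genes (12 of them away from 0), of 13 at a gate of 5 UMIs, of 11 with at most 5% mitochondrial UMIs, of 10 with cells weighted equally, of 8 after thinning and of 7 without marked doublets. Settings that leave out 1 library gave values with no test, and Il22 over DETCs was then -1.10 in the isotype library with a small count added to each sum (-1.17 as a plain ratio of CPM). In the isotype and Skint1 antibody library alone, Tnfrsf25 was 6.32 and 5.07, Serpinb1a 4.14 and 2.69, Pdcd1 6.36 and 4.55 and Gzmc 0.07 and 3.28, and Csf2 was 0.61 in the isotype library.

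The share of cells gated (1.74% and 1.73%, isotype control and Skint1 antibody) was 1.34% and 1.19% with at most 5% mitochondrial UMIs, 3.27% and 3.47% at 2 gate UMIs, 0.871% and 0.514% at 5, 0.664% and 0.538% when cells were thinned before gating, and 0.764% and 0.669% without cells that carried Cd7 and Fcer1g. The share with Il7r was 41.5% and 36.4% after thinning. Ratios between libraries turned for Krt14 (1.31), Lgals7 (1.05) and Krt5 (1.31) with at most 2500 genes, for Krt5 (1.23), Il17f (-1.62) and Trdv4 (0.069 against -0.35) with at most 5% mitochondrial UMIs, for Il17f (-0.057) after thinning, for Gzmc (-1.02) at a gate of 5 UMIs, and for Maf (0.068 against -0.52) without cells that carried Cd7 and Fcer1g. The causes were not tested. Depth limits what 193 cells can show of genes near 1 UMI per cell.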

Other observations

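Some cells with the 6 gate genes were kept out by the criterion on Trac, Cd4 and Cd8a, namely 54 after isotype control and 28 after Skint1 antibody. Of these 82 cells, 47 had exactly 1 such UMI, and 34 of the 47 carried Trdc. Il7r was found in 54 of the 82, 5830411N06Rik in 46, Il17f in 23, Il17a in 19 and Trdc in 46. Among DETCs, whose gate did not read Trac, 5.47% and 7.01% had a Trac UMI. The CD3 criterion kept out 3 and 9 further cells.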
